A study of Nomascus leucogenys with 9 samples.

Results

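The 8 genes described here encode transcription factors of the ETS family: SPI1, which encodes PU.1, SPIB, ETS1, ELF1, FLI1, ETV6, GABPA and ELF4. They were found by their human Ensembl identifiers in a table of 15356 rows from lymphoblastoid cell lines of the northern white-cheeked gibbon (Nomascus leucogenys). All 8 identifiers were present and 0 were absent. All 8 also passed the filter on low rows, a mean level of 1 ppm or more (parts per 1000000 of the summed linear values), which kept 12590 rows. The table held 1 column for each of 9 lines, all labelled as lymphocyte lines transformed by Epstein-Barr virus (EBV). Each line bears its own name and was taken as 1 animal, with no treatment or contrast between animals in the labels. In label order, Asia gave line 1, Bobby line 2, China line 3, Khao line 4, Melouprey line 5, Nancy line 6, Phyllis line 7, Ricky line 8 and Vok line 9. The series concerns LAVA, a gibbon retrotransposon, and these profiles describe 1 group of lines. The labels do not describe the cultures or transformations. Differences between animals, cultures and transformations cannot be told apart in the values below.

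ETS factors share a winged helix-turn-helix DNA-binding domain, the ETS domain, that recognises a GGAA core. In B cells PU.1 and Spi-B, the products of SPI1 and SPIB, bind related sites, often together with an interferon regulatory factor, and control genes of B cell development and antigen receptor signalling. In human B cells infected with EBV, the viral protein EBNA2 reaches some promoters through cellular factors that include PU.1. Other family members act more widely: ETS1 and FLI1 in lymphoid and other blood cells, ELF1 and ELF4 in lymphocytes, ETV6 mainly as a repressor, and GABPA at many promoters of housekeeping and mitochondrial genes.

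Values are deposited log2 levels, in which 1 unit is a 2-fold difference. No division of the rows by gene length is stated, so differences in level between genes were not read as differences in expression. Comparisons were made between lines, and mean levels of rows served only to filter rows and place them by level. The depth of sequencing is unknown, because the authors had already scaled the columns to a common level. The rows were not paired with gene symbols other than the 8 given, so marker genes of B cells or of other cell types were not checked. Line 1 stood apart from the others in the first principal component of the kept rows computed without the 8 genes, which held 34.2% of the variance. It scored 47.9 there, while lines 6 and 3 scored 20.2 and 18.8 and the other 6 lines scored from -20.9 to -9.91.

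SPI1 (ENSG00000066336) was the ETS gene with the widest range among the lines, and line 1 set that range. SPI1 measured 5.75 log2 units in Asia, 7.52 in Bobby, 7.28 in China, 7.89 in Khao, 7.87 in Melouprey, 6.96 in Nancy, 7.31 in Phyllis, 7.63 in Ricky and 7.35 in Vok. Line 1 lay 1.21 log2 units below the next lowest line, line 6, while the other 8 lines lay within 0.93 log2 units of each other. The mean was 7.29 ± 0.65 log2 units (SD, n = 9), or 12.0 ± 4.05 ppm of the linear total. In line 1 SPI1 held 3.86 ppm, against 8.92 to 17.0 ppm in the other lines. The full range of SPI1 was 4.42-fold, and without line 1 it was 1.91-fold. Its SD exceeded that of 93.9% of kept rows, but this too rested on line 1, without which the SD was 0.32 log2 units. By Dixon's gap criterion, which compares the gap beside an extreme sample with the whole range, line 1 was apart at the low end, as some line was in 3.57% of kept rows. In these bulk profiles, fewer cells with the transcript and less transcript per cell cannot be told apart.

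SPIB (ENSG00000269404), the closest relative of SPI1 among the 8 genes, did not share that low value. SPIB was highest in Asia (line 1), with 10.62 log2 units, and China and Melouprey followed with 10.27 and 10.11. Khao held 9.96, Nancy 9.91, Bobby 9.85 and Ricky 9.80, and the lowest values were 9.71 in Vok and 9.67 in Phyllis. The mean was 9.99 ± 0.30 log2 units (SD, n = 9) and the range was 1.94-fold. The line with the least SPI1 was thus the line with the most SPIB.

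The difference between SPIB and SPI1 within a line, whose changes across lines do not depend on gene length, was 4.87 log2 units in Asia. China and Nancy (lines 3 and 6) followed with 2.98 and 2.95, and the other 6 lines ran from 2.06 to 2.36. The lines thus differed 7.02-fold in their ratio of SPIB to SPI1 on this scale. Without line 1 the difference spanned 0.92 log2 units. Over all 9 lines the levels of SPI1 and SPIB had Pearson's r = -0.65 (exact permutation p = 0.076, adjusted p = 0.42 over all other kept rows). Spearman's rho was -0.22 (exact permutation p = 0.58, adjusted p = 0.89). The negative sign rested on line 1: without it r was 0.16, and without lines 1 and 4, the farthest from the SPI1 median, r was 0.13.

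**Figure D1:**
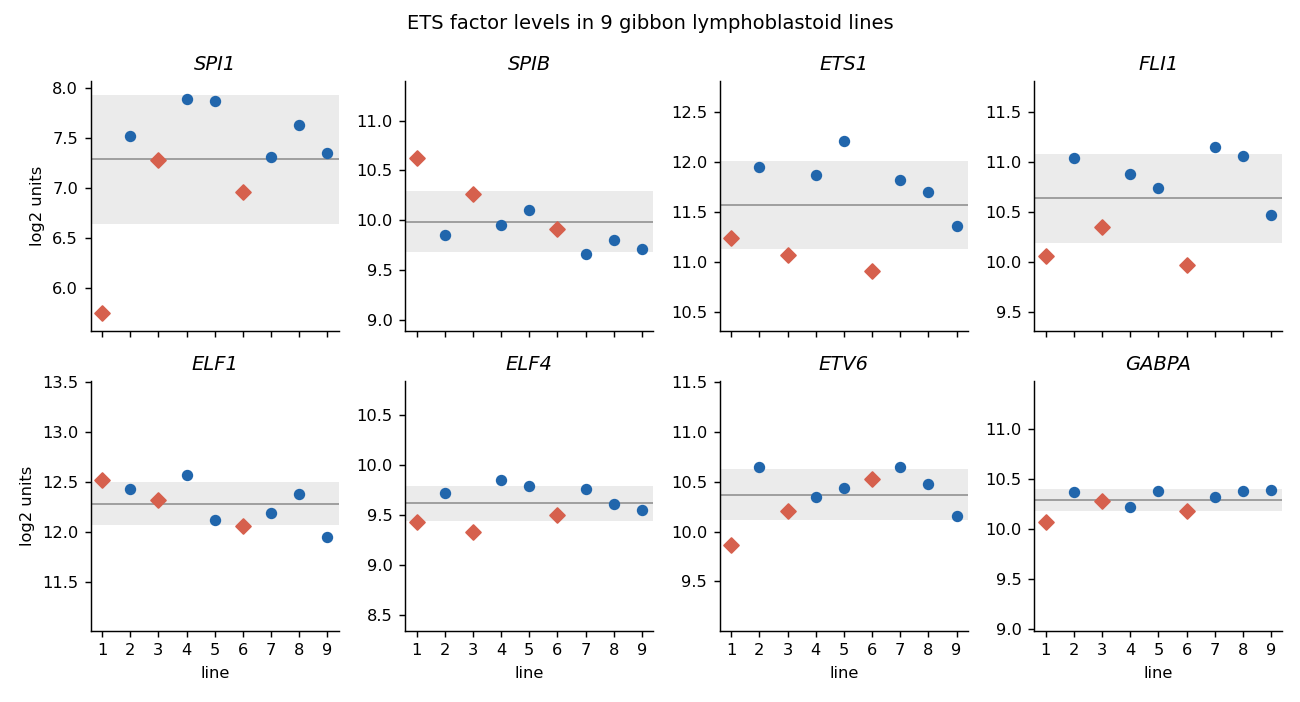
Level of each ETS gene in lines 1 to 9, in log2 units; each panel spans the same height, the grey line is the mean and the band is 1 SD either side (n = 9), and red diamonds mark lines 1, 3 and 6. SPI1 is lowest in line 1, at 5.75, where SPIB has its highest value, 10.62.

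ETS1 (ENSG00000134954) and FLI1 (ENSG00000151702), related factors that both act in lymphoid cells, were the other pair with wide ranges. ETS1 measured 10.91 log2 units in Nancy, 11.07 in China, 11.24 in Asia and 11.36 in Vok. Higher values came from Ricky (11.70), Phyllis (11.82), Khao (11.87) and Bobby (11.94), and the highest from Melouprey (12.21). The values were spread along the range with no line apart. The mean of ETS1 was 11.57 ± 0.44 log2 units (SD, n = 9) and the range 2.46-fold.

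FLI1 was likewise lowest in Nancy (9.98), Asia (10.06), China (10.36) and Vok (10.47). Melouprey (10.74), Khao (10.88), Bobby (11.04) and Ricky (11.07) were higher, and Phyllis (11.15) was highest. The same 4 lines therefore formed the lower end of both genes. The mean of FLI1 was 10.64 ± 0.44 log2 units (SD, n = 9) and the range 2.26-fold. The SDs of ETS1 and FLI1 exceeded those of 84.9% and 85.0% of all kept rows. Each exceeded those of 92.1% of the 2328 rows at or above 100 ppm. Both ranges stayed as wide without line 1, at 1.30 and 1.18 log2 units.

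Over the lines, ETS1 and FLI1 had r = 0.82 (exact permutation p = 0.010, adjusted p = 0.24 over all other kept rows; n = 9). Spearman's rho was 0.68 (exact permutation p = 0.050, adjusted p = 0.49). Without lines 6 and 3, the farthest from the ETS1 median, r was 0.69. The relation missed the threshold of 0.05 after adjustment, and FLI1 ranked 175 of 12589 rows by its r with ETS1. In the RefSeq gene table for the gibbon assembly Asia_NLE_v1, ETS1 and FLI1 lie on the same chromosome with 2 annotated genes between them, of which 0 are protein-coding. SPI1 lies on that chromosome too, with 1160 annotated genes between it and ETS1. The difference between ETS1 and FLI1 within a line ran from 0.63 log2 units in line 8 to 1.47 in line 5, so the ratio of ETS1 to FLI1 differed 1.78-fold among lines.

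**Figure D2:**
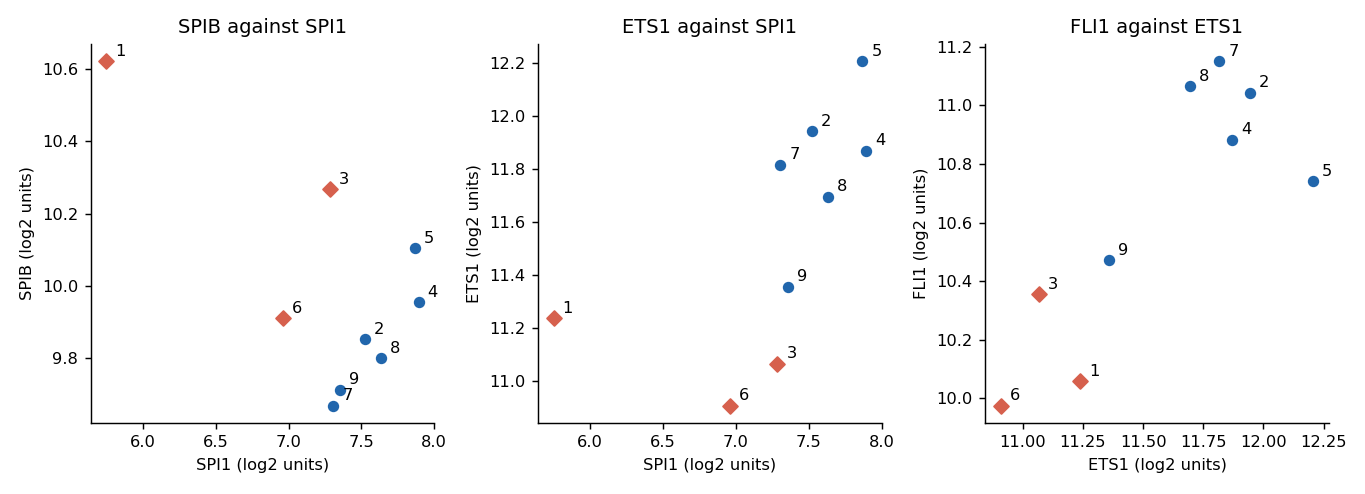
SPIB against SPI1, ETS1 against SPI1 and FLI1 against ETS1, in log2 units, with 1 point per line labelled by its number and red diamonds for lines 1, 3 and 6. Line 1 alone sits at the upper left for SPIB and SPI1 (r = -0.65, or 0.16 without it), while FLI1 and ETS1 lie along a rising diagonal (r = 0.82).

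The related factors ELF1 (ENSG00000120690) and ELF4 (ENSG00000102034) had different patterns. ELF4 ran from 9.33 log2 units in line 3 through a median of 9.61 in line 8 to 9.85 in line 4 (mean 9.62 ± 0.18, SD, n = 9), a range of 1.44-fold. Line 1 (9.43) and line 6 (9.50) were the next lowest for ELF4, and line 5 (9.79) and line 7 (9.77) the next highest. ELF1 ran from 11.94 in line 9 through a median of 12.31 in line 3 to 12.57 in line 4 (mean 12.28 ± 0.21, SD, n = 9), a range of 1.55-fold. For ELF1, line 1 was the second highest, at 12.51.

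With ETS1, ELF4 had r = 0.88 (exact permutation p = 0.0031, adjusted p = 0.19 over all other kept rows; n = 9). Spearman's rho was 0.87 (exact permutation p = 0.0045, adjusted p = 0.24). Without lines 6 and 3, r was 0.88. This was the strongest relation among the 28 pairs of the 8 genes, and ELF4 ranked 52 of 12589 rows by its r with ETS1. ELF1 had no r beyond 0.44 in size with any other of the 8 genes, and its r with ELF4 was 0.12 (exact permutation p = 0.75, adjusted p = 0.92), or -0.29 without lines 9 and 4.

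ETV6 (ENSG00000139083) and GABPA (ENSG00000154727) varied less than SPI1, ETS1 and FLI1. ETV6 was lowest in line 1, at 9.87 log2 units, followed by 10.16 in line 9, with a median of 10.44 and a maximum of 10.65 in line 2 (mean 10.37 ± 0.25, SD, n = 9). Its range was 1.72-fold, or 1.40-fold without line 1. GABPA, the DNA-binding subunit of GA-binding protein, had the narrowest range of the 8 genes, 1.24-fold. It lay between 10.07 in line 1 and 10.39 in line 9, with a median of 10.31 (mean 10.29 ± 0.11, SD, n = 9). The SD of GABPA was above that of 8.08% of kept rows.

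**Figure D3:**
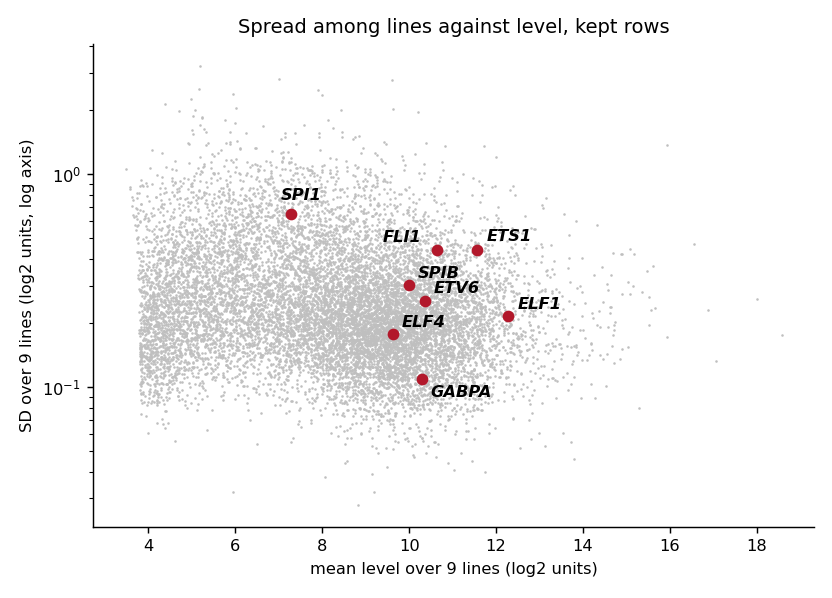
SD over the 9 lines (log2 units, log axis) against mean level (log2 units) for the 12590 kept rows in grey and the 8 ETS genes in red. SPI1 lies near the top of the cloud with an SD of 0.65 (0.32 without line 1). ETS1 and FLI1 lie above most rows of their level at 0.44, and GABPA near the bottom at 0.11.

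As a list, the 8 genes had ranges close to those of the table. SPI1, ETS1 and FLI1, 3 of the 8, spanned 2-fold or more, against 26.4% of kept rows. SPI1 was the 1 gene to span 4-fold or more, against 6.18% of kept rows, and without line 1 the number was 0. With a pseudocount of 1 ppm, SPI1 spanned 1.89 log2 units over all lines, which is short of 4-fold. The median SD was 0.28 log2 units over the 8 genes and 0.22 over all kept rows, and the median ranges were 1.82-fold and 1.60-fold. With 8 genes, these counts are close to the shares in the table.

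The same lines recurred at the low end. Lines 1, 3 and 6 were the 3 lowest lines for SPI1, ETS1, FLI1 and ELF4, which is 4 of the 8 genes, against 4.04% of kept rows. These 3 lines were singled out after the values were seen, and they are also the lines with positive scores on the first principal component. The step from the highest of them to the lowest of the other 6 lines was small: 0.021 log2 units for SPI1, 0.12 for ETS1, 0.12 for FLI1 and 0.052 for ELF4. Line 1 was the lowest line for SPI1, ETV6 and GABPA, as it was for 14.0% of kept rows, and line 6 for ETS1 and FLI1. Lines 2 and 8 were the lowest line for none of the 8 genes, as were lines 4 and 5.

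The 8 genes differed in sign in their correlation with that component. The correlation with its scores was -0.90 for SPI1, -0.84 for GABPA, -0.83 for FLI1, -0.81 for ELF4, -0.79 for ETS1 and -0.69 for ETV6. It was 0.78 for SPIB and 0.21 for ELF1. The median size of this correlation over the other kept rows was 0.43. These are descriptions over the same 9 libraries, and the part of the component in the relations between ETS genes was not tested.

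Among the 28 pairs, 19 had a positive r and 9 a negative r. SPIB took part in 6 of the 9 negative pairs, and its r was positive with ELF1 only, at 0.44. The remaining negative values joined ELF1 with SPI1 (-0.15), ETV6 (-0.18) and GABPA (-0.41). The strongest negative pair was SPIB and ETV6, with r = -0.74 (exact permutation p = 0.023, adjusted p = 0.37), and rho was -0.53 (exact permutation p = 0.15, adjusted p = 0.77). Without lines 1 and 3, the farthest from the SPIB median, that r was -0.034, so it rested on those lines.

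In the two-sided exact permutation test, 0 of the 28 pairs passed an adjusted p of 0.05 over all other kept rows. The smallest adjusted p was 0.19, for ETS1 and ELF4. At an unadjusted p under 0.05 there were 9 pairs by Pearson's r and 3 by Spearman's rho. By the same unadjusted criterion, the share of all other kept rows related to a gene was 17.0% for SPI1, 13.0% for SPIB, 13.4% for ETS1, 14.1% for FLI1, 12.5% for ELF1, 15.2% for ELF4, 14.5% for ETV6 and 18.0% for GABPA. After adjustment, 13 relations of a row with 1 of the 8 genes passed, or 0.0129% of those tested. With limma, fitted over all rows with the level of 1 gene as covariate, 0 pairs passed and the smallest adjusted p, with either gene of a pair as covariate, was 0.058, again for ETS1 and ELF4, while 0.529% of all relations tested passed.

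**Figure D4:**
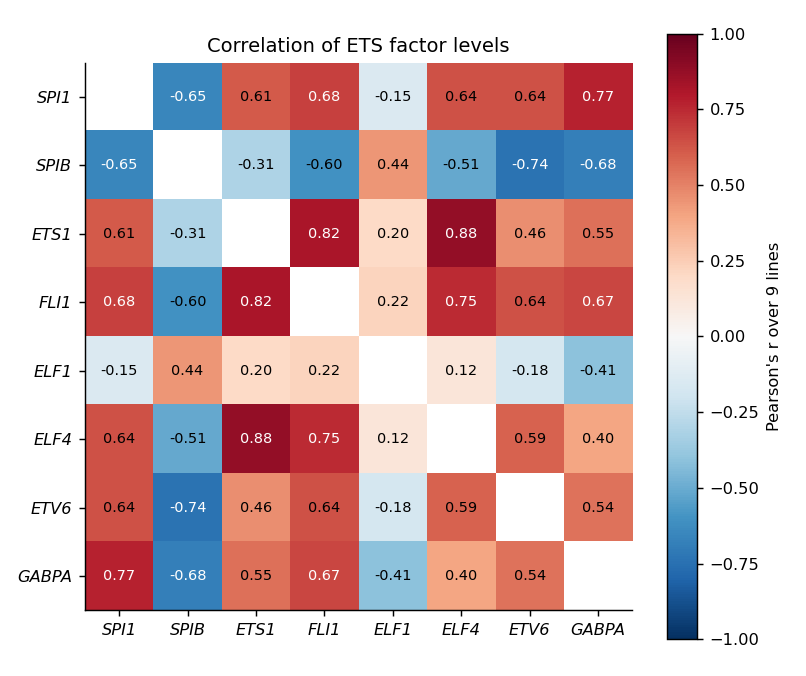
Pearson's r over the 9 lines for each of the 28 pairs of ETS genes, from blue (-1) through white (0) to red (1). SPIB is negative with 6 genes, ELF1 is near 0 with most, and the ETS1, FLI1 and ELF4 block is positive, from 0.75 to 0.88.

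Of the 7 pairs with SPI1, the highest r was with GABPA, at 0.77 (exact permutation p = 0.021, adjusted p = 0.23). Its rho was 0.55 (exact permutation p = 0.13, adjusted p = 0.56), and r was 0.37 without line 1 and 0.83 without lines 1 and 4. FLI1 followed with r = 0.68 (exact permutation p = 0.023, adjusted p = 0.28; rho = 0.60, p = 0.097, adjusted p = 0.56). ELF4 had r = 0.64 (exact permutation p = 0.045, adjusted p = 0.32; rho = 0.83, p = 0.0083, adjusted p = 0.28). These 3 genes were the ones positively related to SPI1 at an unadjusted p under 0.05, as were 5.97% of all other kept rows.

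ETS1 had r = 0.61 with SPI1 over all lines (exact permutation p = 0.059, adjusted p = 0.40) and a rho of 0.80 (exact permutation p = 0.014, adjusted p = 0.32). Without line 1, r was 0.83, and without lines 1 and 4 it was 0.86. ETV6 had r = 0.64 with SPI1 (exact permutation p = 0.069, adjusted p = 0.39), but rho was 0.22 (exact permutation p = 0.58, adjusted p = 0.92) and r without line 1 was -0.053. The r of ETV6 with SPI1 thus rested on line 1. For FLI1 and ELF4, r with SPI1 was 0.61 and 0.69 without line 1, and 0.62 and 0.58 without lines 1 and 4. For ELF1, r was -0.15 (exact permutation p = 0.74, adjusted p = 0.91) and rho was 0.20 (exact permutation p = 0.61, adjusted p = 0.88).

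**Figure D5:**
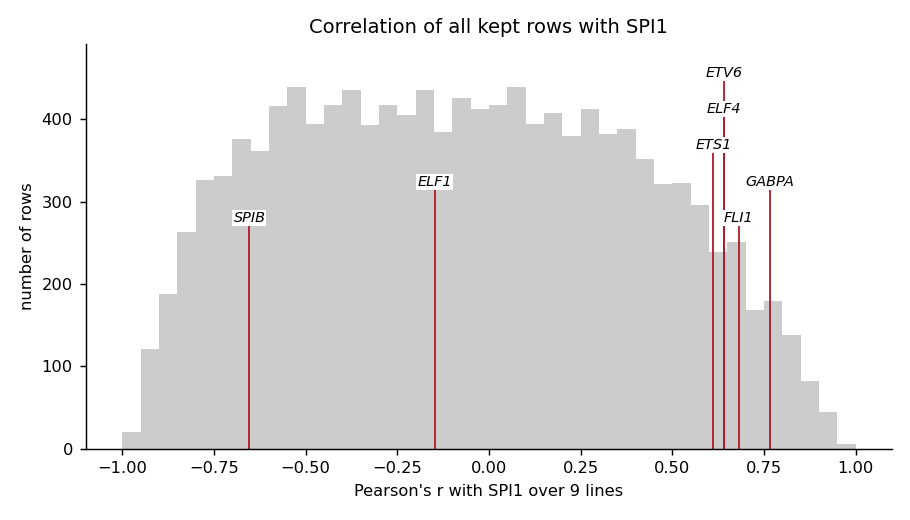
Number of kept rows by their Pearson's r with SPI1 over the 9 lines (bins of 0.05), with the 7 other ETS genes marked by red lines. GABPA at 0.77 and FLI1 at 0.68 lie to the right of most rows, SPIB at -0.65 lies to the left, and rows with larger r of either sign are numerous.

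The rows most like SPI1 over the 9 lines were not among the ETS genes. The highest r was 0.98 for ENSG00000106546 (mean 9.61 ± 0.65 log2 units, SD, n = 9) and 0.98 for ENSG00000000938 (mean 9.87 ± 1.17). ENSG00000000938 ran from 7.30 in line 1 and 9.06 in line 6 to 11.06 in line 4 and had a rho of 0.97 with SPI1. Without line 1 their r was 0.91 and 0.94, and the exact permutation test gave each an adjusted p of 0.076. The lowest r was -0.97 for ENSG00000197557 (mean 6.25 ± 0.32) and -0.97 for ENSG00000140740 (mean 12.24 ± 0.11), each with an exact permutation adjusted p of 0.085.

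The rows that did pass the exact permutation test with SPI1 were 2, both positive, or 0.0159% of all other kept rows, and 0 were negative. They were ENSG00000005339, with r = 0.96 (adjusted p = 0.035, exact permutation) and the same order of lines as SPI1 (rho = 1), and ENSG00000171617, with r = 0.91 (adjusted p = 0.035, exact permutation). Both are named after their values were seen. Their r was below the 0.98 of the 2 rows above that did not pass, so passing does not mark the most strongly related rows. The smallest p of the exact permutation test with 9 lines is 2.8e-06, and a row passing alone must reach it. An unadjusted p under 0.05 was reached by 17.0% of rows. By limma, 367 rows (2.92%) passed with SPI1 as covariate, 134 positive and 233 negative, but 0 passed with line 1 left out. The smallest adjusted p by limma was then 0.17. Leaving out line 1 also lowered the SD of SPI1 from 0.65 to 0.32 log2 units. Lost power and dependence on line 1 therefore cannot be told apart.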

How the data were processed

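RNA from the lines was purified with an RNeasy Mini kit and made into Illumina TruSeq libraries, per the labels' protocols. The submitters' processing notes name STAR, Trimmomatic, DESeq2 and edgeR without versions or roles. The sources used here give no genome build, annotation, normalization method, strandedness or library batch. The values deposited by the authors were treated as log2 expression, and the base is not stated. They ran from 0.71 to 18.66, and the sum of the linear values (base 2) was 13728358 to 14059842 per line. If the authors used a transformation that shrinks low rows, differences in SPI1, the lowest of the 8 rows, are understated most. Depth is unknown, so no counting interval could be given. The 9 lines formed 1 group, and 0 per-sample columns were left unused. In the header, a space rather than a tab divides the names Ricky and Vok. Lines 8 and 9 were therefore taken from the header split at white space, where names and fields per row are equal in number.

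Gene names are those given with the 8 identifiers. The RefSeq table (33914 genes, Asia_NLE_v1) holds 0 Ensembl identifiers, so the planned lists of other ETS genes, partner genes and cell type markers could not be matched. It was matched by symbol for all 8 genes and used only for the order of genes. No sequence is shown.

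The filter kept rows averaging 1 ppm or more. Pearson's r and Spearman's rho of each of the 8 genes with each of 12589 other kept rows were tested over all 362880 orderings of the lines, two-sided, with Benjamini-Hochberg adjustment over those rows (Python 3.11.15, numpy 2.4.6). For a pair among the 8, the larger of its adjusted p is given. Permutation p-values set the r or rho of 2 rows against its values over all orderings of the lines, each taken as 1 animal. They do not measure the spread of a gene. limma 3.58.1 in R 4.3.3 (trend, robust) was an alternative. Tested on simulated data with 12590 rows and SPI1 as reference, the permutation test recovered 57 of 100 rows with a true r of 0.95. It recovered 100 of 100 with 0.99, and it also called 9 unrelated rows. Both sets of related rows were planted together, which eases the adjusted threshold. Recovery where few rows pass, as with SPI1 here, was not simulated. Alternatives were scaling, pseudocount, filter, rank correlation and leaving out lines. The named rows were all 8 genes, plus the 2 rows with the highest and the 2 with the lowest r with SPI1. The 2 rows that passed the exact permutation test with SPI1 were also named, after their values were seen. The 8 genes and the tests were chosen with earlier results of these data known.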

Additional observations from a re-analysis of the deposited data

Results flagged for a closer look

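Of 11 sets of 9 values checked for an extreme line (8 genes and 3 differences between paired genes), 2 had one, and chance gives such a line in about 1 in 20 independent sets. Over all 12590 kept rows, the same criterion found an extreme line in 1268 (10.1%). The 2 sets with an extreme line share the SPI1 values and are not independent. SPI1 in line 1, at 5.75 log2 units, was separated by a wide gap from the next value, 6.96. The difference of SPIB minus SPI1 in line 1, at 4.87 log2 units, was separated in the same way from the next value, 2.98.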

How the results depend on the processing

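Line 1 decided several values. Without it the range of SPI1 was 0.93 log2 units (0.93 to 2.14 when each line was left out in turn), that of SPIB 0.60 (0.60 to 0.95) and that of ETV6 0.49 (0.49 to 0.78). With each line left out in turn, r of SPI1 lay between -0.75 and 0.16 with SPIB, between -0.41 and 0.52 with ELF1, and between -0.053 and 0.72 with ETV6, and in each the value without line 1 had the other sign. Other pairs that changed sign had a small r: ELF1 and ETV6 (-0.47 to 0.20), ELF1 and ELF4 (-0.18 to 0.34), and ETS1 and ELF1 (-0.023 to 0.44). Under Spearman's rho, SPI1 and ELF1 gave 0.20. The number of genes spanning at least 2-fold was 3 under the scaling and pseudocount tried and 2 to 3 with a line left out. The filters could not change that number, because all 8 genes passed each with unchanged values. No pair passed the adjusted threshold under any setting in which pairs were examined. Pairs were not examined with limma without line 1. The rows related to any of the 8 genes by the exact permutation test were 13 relations in all. They were 8 with a filter of 5 ppm, 2 with Spearman's rho, 533 with limma and 54 with limma without line 1, a setting added after seeing the data. With a line left out the number lay between 0 and 363, the latter without line 6. For SPI1 the 2 rows became 0 with Spearman's rho, 367 with limma, 0 with limma without line 1 and 0 (0 to 0) with any line left out. With 8 lines the smallest exact permutation p is 2.5e-05, so a single row cannot pass there. Rows can pass only in a group, as they did without line 6. The permutation counts of 0 with a line left out therefore say nothing about stability. The 0 by limma without line 1 is not bound by that limit. There, lost power and dependence on line 1 cannot be told apart. With Spearman's rho over all lines, even a row in the same order as SPI1 has an exact permutation p of 5.5e-06. A single row with that p cannot pass over the kept rows, so the 0 for SPI1 under rho says nothing about stability either. The causes of the other changes were not tested. No paired analysis was possible because all lines form a single group. With depth unknown, counting noise in SPI1 could not be separated from its spread.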
